A study of Mus musculus with 8 samples.

Results

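Cyp4f genes encode cytochrome P450 enzymes of the CYP4F subfamily. The deposited table of RNA sequencing counts held 9 of them, Cyp4f13, Cyp4f14, Cyp4f15, Cyp4f16, Cyp4f17, Cyp4f18, Cyp4f37, Cyp4f39 and Cyp4f40, out of 20701 gene symbols. They were taken by symbol and had 14 of the 31507 RefSeq transcripts in the table. The group was selected on measured values, because Cyp4f16 was known from the same counts to be lower in the mutant embryos and to vary widely between control embryos. The values that chose it are therefore given as a description without a test. Of the 9 genes, 3 (Cyp4f13, Cyp4f16 and Cyp4f17) had enough counts to enter the comparison of 13769 genes, and the other 6 were removed by the filter on low counts.

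The study asked how gene expression in the outflow tract and right ventricle (OFT/RV) depends on Isl1, a LIM-homeodomain transcription factor of the second heart field, from which both structures arise. Polyadenylated RNA came from the dissected OFT/RV of single C57BL/6 embryos at E10.5, with 4 embryos in each group. CTRL embryos were labelled wild type, and Isl1_hypo embryos carried hypomorphic Isl1 alleles (f;neo/f;neo), which lower Isl1 expression throughout the embryo and do not abolish it. The labels name no treatment. The tissue is a mixture of cells, so fewer cells of a type and less RNA per cell cannot be told apart.

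Cytochrome P450 enzymes bind heme through a cysteine near the end of the protein and use oxygen and electrons from a reductase to hydroxylate their substrates. CYP4F enzymes hydroxylate the omega end or nearby carbons of fatty acids, and members of the subfamily act on leukotriene B4, arachidonic acid and very long chain fatty acids. In adult tissue they are best known from liver, kidney, leukocytes and skin. Among the members, Cyp4f14 is known as an enzyme of liver that metabolises leukotriene B4, Cyp4f18 as its counterpart in neutrophils, and Cyp4f39 as a very long chain fatty acid hydroxylase of skin used for acylceramides.

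In the mm9 annotation 8 of the 9 genes lay on chromosome 17 within 479 kb, and Cyp4f18 lay on chromosome 8 (74512381 to 74533525, minus strand). On chromosome 17 the order was Cyp4f39 (32605404 to 32630265), Cyp4f17 (32643407 to 32665839), Cyp4f16 (32673503 to 32688743), Cyp4f37 (32758264 to 32773129), Cyp4f40 (32796355 to 32813632) and Cyp4f15 (32822572 to 32840297), all on the plus strand. Cyp4f14 (33042016 to 33054023) and Cyp4f13 (33061633 to 33084347) followed on the minus strand. The end of Cyp4f17 was 7.66 kb from the start of Cyp4f16, whereas 69.5 kb separated Cyp4f16 from Cyp4f37. None of the 8 genes on chromosome 17 overlapped another annotated gene. Cyp4f18 overlapped Zfp961, and reads were counted without regard to strand.

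To show how alike the genes are where they are most conserved, the 30 coding bases around the codon of the heme-binding cysteine are given here from the mm9 transcripts, 5′ to 3′ on the coding strand. Capitals mark bases that differ from Cyp4f16. In each of the 9 genes the segment ran from the second last exon, with 17 bases, into the last exon, with 13 bases. For Cyp4f16 these were exon 12 (chromosome 17, 32687743 to 32687759) and exon 13 (32688001 to 32688013).
Cyp4f16: ttttctgccgggcccaggaactgcatagga
Cyp4f37: ttttctgccgggcccaggaactgcatagga
Cyp4f17: ttttctgcTgggccTaggaactgcatagga
Cyp4f15: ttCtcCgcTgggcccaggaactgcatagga
Cyp4f18: ttCtcGgcTgggcccaggaactgcatagga
Cyp4f13: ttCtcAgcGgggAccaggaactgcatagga
Cyp4f14: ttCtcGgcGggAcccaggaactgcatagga
Cyp4f40: ttCtcAgcGgggccAaggaactgcatTgga
Cyp4f39: ttCtcAgcAggTcccaggaaTtgcatCggG
Cyp4f37 had the same 30 bases as Cyp4f16, Cyp4f17 differed at 2 positions and Cyp4f39 at 7. The other 5 genes differed at 3 to 5 positions.

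Over the whole coding sequence Cyp4f16 and Cyp4f37 shared 95.7% of aligned bases. Cyp4f17 shared 84.3% with Cyp4f16, Cyp4f13 shared 82.6%, and Cyp4f39 was the least like it at 69.4%. Stretches of 50 bases were used as a stand-in for reads, whose length is not given in the sources used here. Of all such stretches in the Cyp4f16 transcript, 24.1% also occurred in Cyp4f37 and 25.7% in at least 1 other Cyp4f transcript. The share was 5.60% for Cyp4f17 and 2.64% for Cyp4f13. Counts of Cyp4f16 and Cyp4f37 are therefore uncertain to the extent that such reads were split between them.

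**Figure D1:**
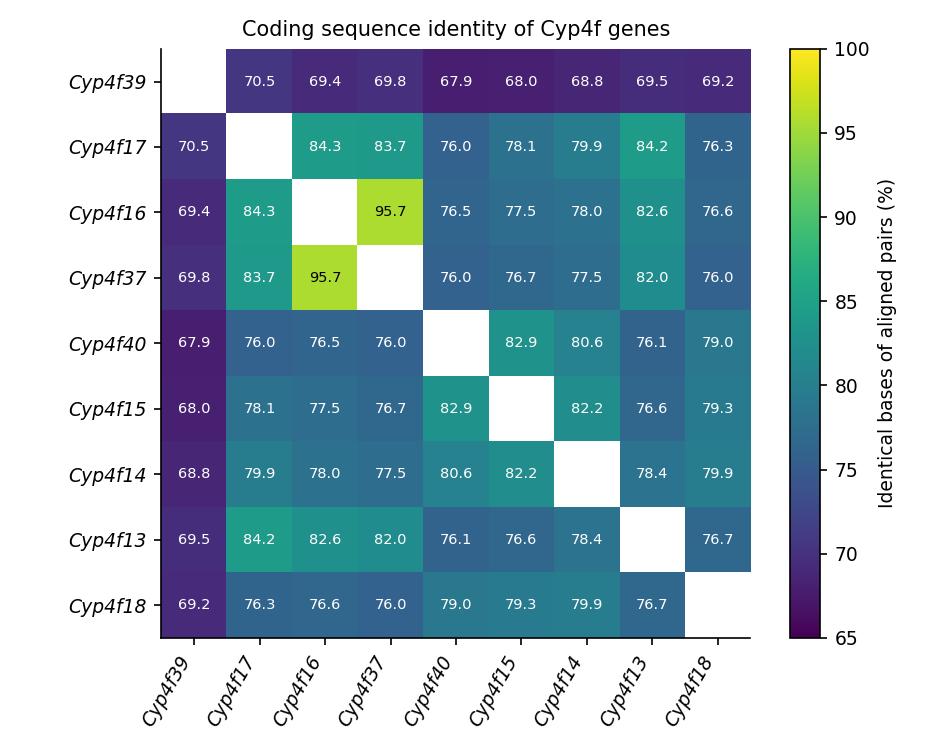
Heat map of the identity of coding sequences between pairs of Cyp4f genes, as the percentage of aligned bases that were identical, with genes in their order on chromosome 17 and Cyp4f18 of chromosome 8 last. Cyp4f16 and Cyp4f37 shared 95.7% of bases, the highest value of any pair, and every pair with Cyp4f39 lay between 67.9% and 70.5%.

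The likeness extended to the start of the gene. The promoters of Cyp4f16 and Cyp4f37 (RefSeq, GRCm38.p6; 250 bases before to 50 after the start, plus strand) lay at chr17:32536307-32536606 and chr17:32621069-32621368 and are shown because they were the closest pair with Cyp4f16. Capitals mark bases shared in their alignment.
Cyp4f16: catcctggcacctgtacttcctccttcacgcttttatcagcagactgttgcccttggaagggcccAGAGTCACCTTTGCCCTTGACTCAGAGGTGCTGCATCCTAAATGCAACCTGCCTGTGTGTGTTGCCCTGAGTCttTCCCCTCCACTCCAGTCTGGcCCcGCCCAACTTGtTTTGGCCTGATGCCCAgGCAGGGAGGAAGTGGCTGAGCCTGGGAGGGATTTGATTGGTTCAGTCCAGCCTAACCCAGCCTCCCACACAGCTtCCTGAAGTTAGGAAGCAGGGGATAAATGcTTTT
Cyp4f37: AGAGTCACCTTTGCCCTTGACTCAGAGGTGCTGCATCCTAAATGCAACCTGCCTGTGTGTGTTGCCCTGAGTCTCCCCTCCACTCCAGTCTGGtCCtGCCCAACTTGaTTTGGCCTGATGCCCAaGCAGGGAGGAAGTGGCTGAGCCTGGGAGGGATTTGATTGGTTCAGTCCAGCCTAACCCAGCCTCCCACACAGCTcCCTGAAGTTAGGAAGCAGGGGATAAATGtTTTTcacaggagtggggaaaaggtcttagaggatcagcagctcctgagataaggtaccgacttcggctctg
They shared 227 of 233 aligned bases (97.4%), and the aligned block was shifted between the 2 windows. The other members in the table aligned with Cyp4f16 over 14 to 104 bases only. RefSeq promoters were matched for 8 of the 9 genes, all but Cyp4f17. The letters CTAATG, a form of the site that Isl1 and related homeodomain proteins bind, were searched on both strands and occurred in 0 of the 8, against 8.49% of 27025 genes. The TATA box letters TATAAA also occurred in 0 of the 8, against 15.7% of genes. CCAAT occurred in 6 of the 8 (Cyp4f13, Cyp4f14, Cyp4f15, Cyp4f16, Cyp4f18 and Cyp4f37), against 41.1% of genes. A match describes letters in this window and not a bound site.

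Before the Cyp4f genes were compared, the libraries were checked. Total counts ranged from 29748458 to 46678973 in CTRL and from 18422245 to 33050298 in Isl1_hypo. Levels are given as depth-scaled counts (CPM), always with embryos in the order of their replicate numbers. The targeted gene, Isl1, reached 29.6, 61.5, 46.2 and 51.3 CPM across the controls. The mutants had 12.7, 6.86, 7.71 and 11.4 CPM. The groups did not overlap, and the log2 fold change was -2.29 (SE 0.26; edgeR quasi-likelihood test, adjusted p = 0.0077). CTRL replicate 1 had the lowest Isl1 level of the controls. By median rank correlation with the rest of its group, Isl1_hypo replicate 3 stood lowest at 0.970, and the other 7 libraries lay between 0.983 and 0.989. Over 4 Y-linked genes the summed level was 204 CPM in CTRL replicate 3 and 223, 277 and 225 CPM in Isl1_hypo replicates 1, 3 and 4, and at most 0.337 CPM in the other 4 embryos. Sex was therefore unevenly divided between the groups. The 10 cardiomyocyte markers summed to 40036 to 49112 CPM in CTRL and 41469 to 50678 CPM in Isl1_hypo and were present in all 8 libraries.

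Cyp4f16 was the most abundant Cyp4f gene in 3 of the 4 control embryos and was low in every mutant embryo. Its raw counts were 56, 633, 338 and 732 in the CTRL embryos and 20, 30, 22 and 23 in the Isl1_hypo embryos. Scaled to depth, the control levels were 1.79, 15.6, 8.39 and 15.6 CPM, and the mutant levels were 1.09, 1.12, 0.695 and 0.796 CPM. CTRL replicate 1 stood far below the other controls and closest to the mutants, yet all 4 controls were above all 4 mutants. The means were 10.4 ± 6.64 CPM (SD, n = 4) in CTRL and 0.925 ± 0.212 CPM (SD, n = 4) in Isl1_hypo. This gave a log2 fold change of -3.49 (SE 0.58), or 11.3-fold lower in Isl1_hypo. No p is given, since this contrast was used to choose the gene.

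By counting error alone, CTRL replicate 1 overlapped 2 of the 4 mutants. Its 56 counts had an exact Poisson interval at 95% of 1.35 to 2.33 CPM. The intervals of Isl1_hypo replicates 1 and 2 reached up to 1.68 and 1.60 CPM, and those of replicates 3 and 4 ended below it, at 1.05 and 1.19 CPM. The other 3 controls had intervals from 7.52 CPM upwards. The embryo of CTRL with Y-linked transcripts, replicate 3, was at 8.39 CPM, against 0.695 to 1.09 CPM in the 3 such embryos of Isl1_hypo. Without these transcripts, CTRL replicates 1, 2 and 4 were at 1.79, 15.6 and 15.6 CPM, against 1.12 CPM in Isl1_hypo replicate 2.

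Cyp4f17, the gene next to Cyp4f16, had a different pattern over the same embryos. Its raw counts were 99, 45, 109 and 26 in CTRL and 52, 56, 81 and 33 in Isl1_hypo, or 3.17, 1.11, 2.71 and 0.556 CPM and 2.82, 2.10, 2.56 and 1.14 CPM. The groups overlapped throughout, with means of 1.88 ± 1.25 and 2.16 ± 0.740 CPM (SD, n = 4 each). The log2 fold change was 0.20 (SE 0.55). With single embryos left out it ran from -0.11 (SE 0.50) without CTRL replicate 4 to 0.56 (SE 0.60) without CTRL replicate 1. Among the controls, Cyp4f17 was highest in replicate 1, where Cyp4f16 was lowest. It was lowest in replicate 4, where Cyp4f16 was at 15.6 CPM, as in replicate 2.

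Cyp4f13, at the far end of the cluster on the other strand, had its higher mean in Isl1_hypo. Its raw counts were 65, 65, 39 and 64 in CTRL and 78, 98, 113 and 47 in Isl1_hypo. These were 2.08, 1.60, 0.968 and 1.37 CPM in CTRL and 4.24, 3.67, 3.57 and 1.63 CPM in Isl1_hypo. Of the mutants, 3 lay above all controls, and Isl1_hypo replicate 4 lay within the control range. The means were 1.504 ± 0.464 and 3.28 ± 1.14 CPM (SD, n = 4 each), with a log2 fold change of 1.12 (SE 0.41).

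**Figure D2:**
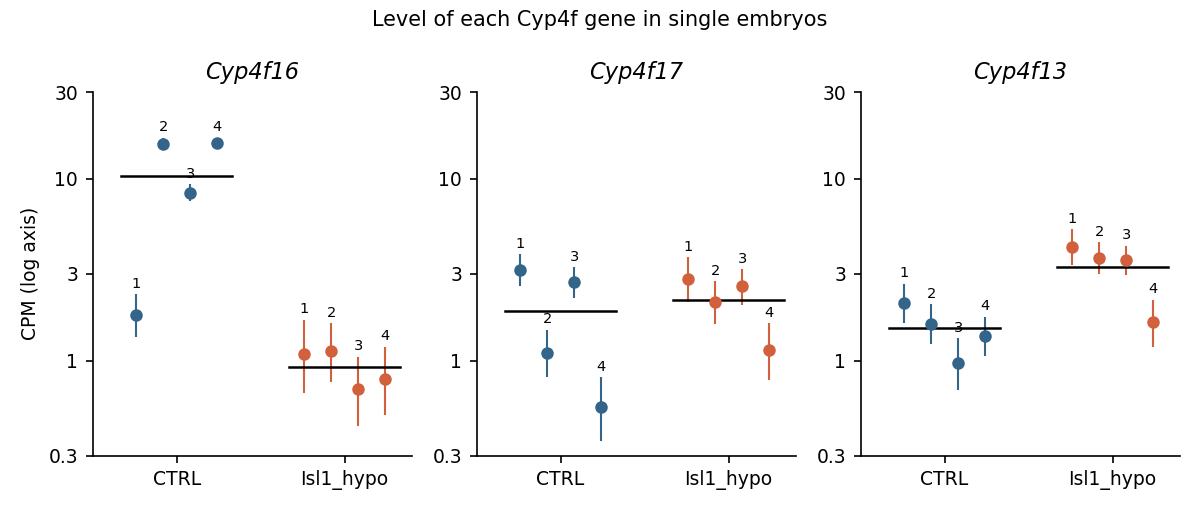
Level of Cyp4f16, Cyp4f17 and Cyp4f13 in each embryo (points, labelled with the replicate number), in CPM on a log axis, with exact Poisson intervals at 95% for counting error (bars) and group means (black lines). Cyp4f16 spans 1.79 to 15.6 CPM in CTRL and 0.695 to 1.12 CPM in Isl1_hypo, and both other genes overlap between groups.

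Of the 3 Cyp4f genes tested, 1 (Cyp4f16) was among the 37 of 13769 genes called by edgeR at an adjusted p of 0.05 (0.269%), of which 17 were lower in Isl1_hypo (0.123%). Over all genes DESeq2 called 319 of the 13749 to which it gave an adjusted p (2.32%), and 1633 of 13769 (11.9%) had an unadjusted edgeR p under 0.05. Groups that did not overlap, with Isl1_hypo lower, were found for 1 of the 3 Cyp4f genes and for 612 of all genes tested (4.44%). Because Cyp4f16 was chosen on this contrast, its call is a description of how it was chosen, and nothing is read from these shares. The median log2 fold change of all genes tested was 0.01.

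Per kilobase of transcript, which allows levels to be compared between genes, Cyp4f16 was at 4.81 ± 3.09 CPM per kb in CTRL, Cyp4f17 at 1.12 ± 0.745 and Cyp4f13 at 0.887 ± 0.274 (SD, n = 4 each). The ranges of these 3 overlapped, because CTRL replicate 1 had 0.833 CPM per kb of Cyp4f16. In Isl1_hypo the order was reversed, with Cyp4f13 at 1.93 ± 0.671, Cyp4f17 at 1.28 ± 0.441 and Cyp4f16 at 0.430 ± 0.0986 CPM per kb. Neighbours in that order overlapped for Cyp4f13 and Cyp4f17, whereas the highest Cyp4f16 value, 0.522 CPM per kb, was below the lowest Cyp4f17 value, 0.680 CPM per kb. The remaining 6 genes had means of at most 0.112 CPM per kb in either group.

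Cyp4f16 made up 21.6%, 84.7%, 68.0% and 87.6% of all counts on the 9 genes in CTRL replicates 1 to 4. In Isl1_hypo its share was 13.2%, 14.8%, 10% and 21.5%. By counting error CTRL replicate 1 was not separated from 3 of the 4 mutants. Its Wilson interval at 95%, 17% to 27% of 259 counts, overlapped those of Isl1_hypo replicates 1, 2 and 4, which reached up to 19.6%, 20.3% and 30.2%. That of replicate 3 ended at 14.7%. In the other 3 controls Cyp4f16 held most of the family's reads, and in all 4 mutants Cyp4f13 and Cyp4f17 together did. Intervals here cover counting error only, since reads carry no molecular identifiers.

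The other 6 genes were close to the limit of detection. Cyp4f15, whose 2 transcripts had nearly equal counts, was at 22, 0, 10 and 0 counts in CTRL and 0, 4, 0 and 3 in Isl1_hypo for the transcript NM_134127. Cyp4f37, the near copy of Cyp4f16, was at 10, 0, 0 and 0 counts in CTRL and 0, 5, 4 and 1 in Isl1_hypo. In CTRL replicates 2, 3 and 4, which had 633, 338 and 732 counts on Cyp4f16, Cyp4f37 therefore had 0 counts. Cyp4f40 had 0, 0, 1 and 0 counts in CTRL and 0, 10, 0 and 0 in Isl1_hypo, so that a single embryo gave all but 1 of its counts.

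Cyp4f18, Cyp4f39 and Cyp4f14, best known from other adult tissues, were also sparse. Cyp4f18 had 0, 4, 0 and 13 counts in CTRL and 0 in every Isl1_hypo embryo. Cyp4f39 had 5, 0, 0 and 1 counts in CTRL and 0 in every Isl1_hypo embryo. Cyp4f14, whose 5 transcripts carried identical counts, had 2 counts in CTRL replicate 1 and 1 count in Isl1_hypo replicate 1. For a library without a count a one-sided floor of 3 counts was used, which is 0.0641 to 0.163 CPM depending on its depth. The upper end of the 2-sided Poisson interval used above is 3.69 counts. At this depth no difference between the groups was detectable for these genes.

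Spread between control embryos was examined next, over the 12640 genes tested with a mean of at least 1 CPM. The SD of log2 CPM of Cyp4f16 over the 4 CTRL embryos was 1.45, with a highest value 8.73 times the lowest in CPM. The median gene had an SD of 0.19, and 78 genes had a larger SD than Cyp4f16. In Isl1_hypo the SD of Cyp4f16 was 0.32, near the median of 0.26, and the highest value was 1.62 times the lowest. It rests on 20, 30, 22 and 23 counts, so counting error is part of it, to an extent that was not estimated. Without CTRL replicate 1 the control SD was 0.51, and the log2 fold change was -3.85 (SE 0.32). Levels on the log2 scale here carry a prior count of 2.

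Cyp4f17 was also among the more variable genes of the control embryos. Its control SD was 1.12, exceeded by 177 of the 12640 genes, with a highest value 5.70 times the lowest, and its SD in Isl1_hypo was 0.57. Cyp4f13 had an SD of 0.44 in CTRL and 0.61 in Isl1_hypo. For comparison, Isl1 had an SD of 0.45 in CTRL and 0.43 in Isl1_hypo. Among the 3 Cyp4f genes tested, the wide spread concerned the 2 adjacent genes Cyp4f16 and Cyp4f17. Their orders over the controls were opposite, apart from replicates 2 and 4, which counting error did not separate for Cyp4f16.

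**Figure D3:**
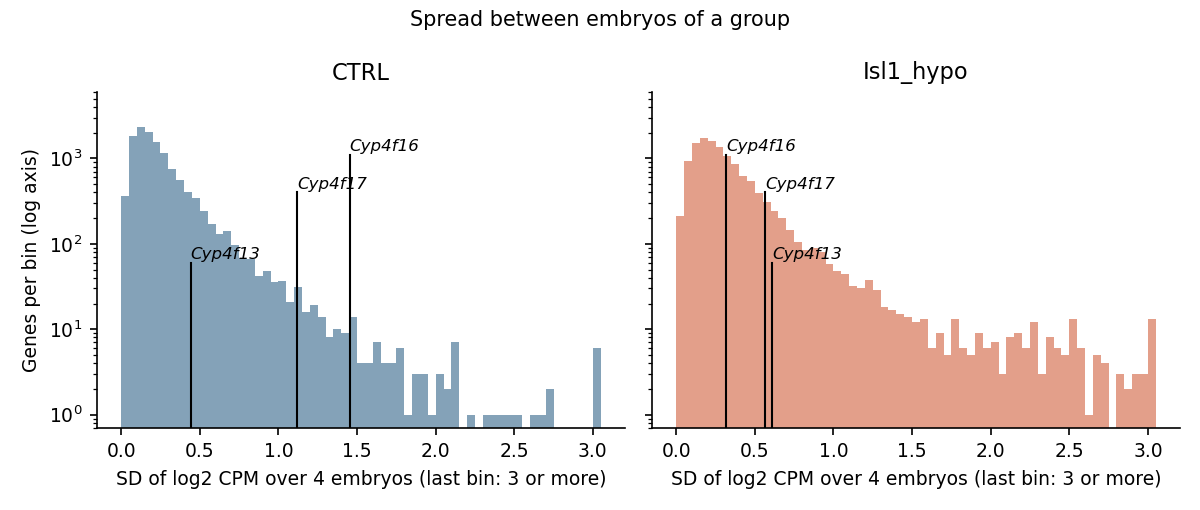
Histograms of the SD of log2 CPM over the 4 embryos of each group for 12640 genes, with the number of genes per bin on a log axis and lines at the Cyp4f genes (line heights carry no value). In CTRL, Cyp4f16 (1.45) and Cyp4f17 (1.12) lie in the right tail, and in Isl1_hypo Cyp4f16 (0.32) lies near the bulk of genes.

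The ratio of the 2 adjacent genes was taken within each library, which removes differences in depth. The log2 ratio of Cyp4f16 to Cyp4f17 was -0.82, 3.81, 1.63 and 4.82 in CTRL replicates 1 to 4. It was -1.38, -0.90, -1.88 and -0.52 in Isl1_hypo. CTRL replicate 1 was thus the 1 control in which Cyp4f17 exceeded Cyp4f16, as it did in all 4 mutants, and its value lay within the mutant range.

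Cyp4f16 was also set beside Isl1 in the same embryos. Both genes were lowest among the controls in replicate 1, and both were higher in replicates 2 and 4 than in replicate 3. Isl1 in CTRL replicate 1 was at 29.6 CPM, above the highest mutant at 12.7 CPM. Within the 4 mutants Cyp4f16 stayed at 0.695 to 1.12 CPM while Isl1 ran from 6.86 to 12.7 CPM. No correlation is given, because the embryos fall into 2 separate groups of 4.

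**Figure D4:**
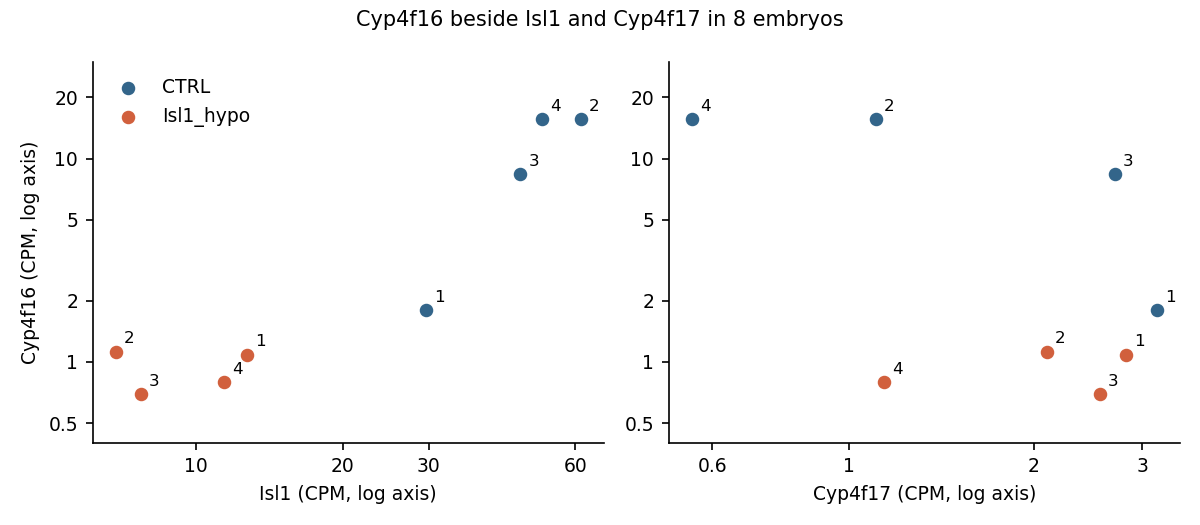
Cyp4f16 level against the level of Isl1 (left) and of Cyp4f17 (right) in each of the 8 embryos, in CPM with log axes and replicate numbers beside the points. CTRL replicate 1 has the lowest Isl1 level of the controls (29.6 CPM) together with 1.79 CPM of Cyp4f16, and it has the highest Cyp4f17 level (3.17 CPM).

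To see whether the difference in Cyp4f16 extended along the chromosome, all annotated genes within 500 kb of the cluster were taken. Of 29 other genes 20 were tested, and 0 were called by edgeR, against 0.269% of all genes. With DESeq2 0 were called, against 2.32% of all genes. An unadjusted edgeR p under 0.05 was found for 1 of the 20 (Notch3), against 11.9% of all genes. Their log2 fold changes ran from -0.52 (Notch3, a Notch receptor of vascular smooth muscle) to 0.64 (Hsf2bp), with a median of 0.03, and 9 were lower and 11 higher. Notch3 was at 39.5 ± 3.52 CPM in CTRL and 27.6 ± 9.10 CPM in Isl1_hypo (SE of the log2 fold change 0.23; edgeR adjusted p = 0.40).

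On the side of Cyp4f39 the nearest tested neighbours were Rasal3 and Wiz. Rasal3, a Ras GTPase-activating protein of blood cells, had a log2 fold change of 0.15 (SE 0.76) at a mean of 1.03 CPM in CTRL. Wiz, a zinc finger partner of histone methyltransferases, had one of -0.05 (SE 0.15). On the side of Cyp4f13 they were the zinc finger genes Zfp472 at 0.04 (SE 0.19) and Zfp952 at -0.07 (SE 0.19). A further 4 zinc finger genes lie inside the cluster between Cyp4f15 and Cyp4f14, with log2 fold changes of -0.26 for Zfp871, 0.10 for Zfp811, -0.12 for Zfp799 and 0.24 for Zfp870. The control SD of log2 CPM of the 20 neighbours had a median of 0.22 and reached at most 0.99 (Hsf2bp), below that of Cyp4f17.

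**Figure D5:**
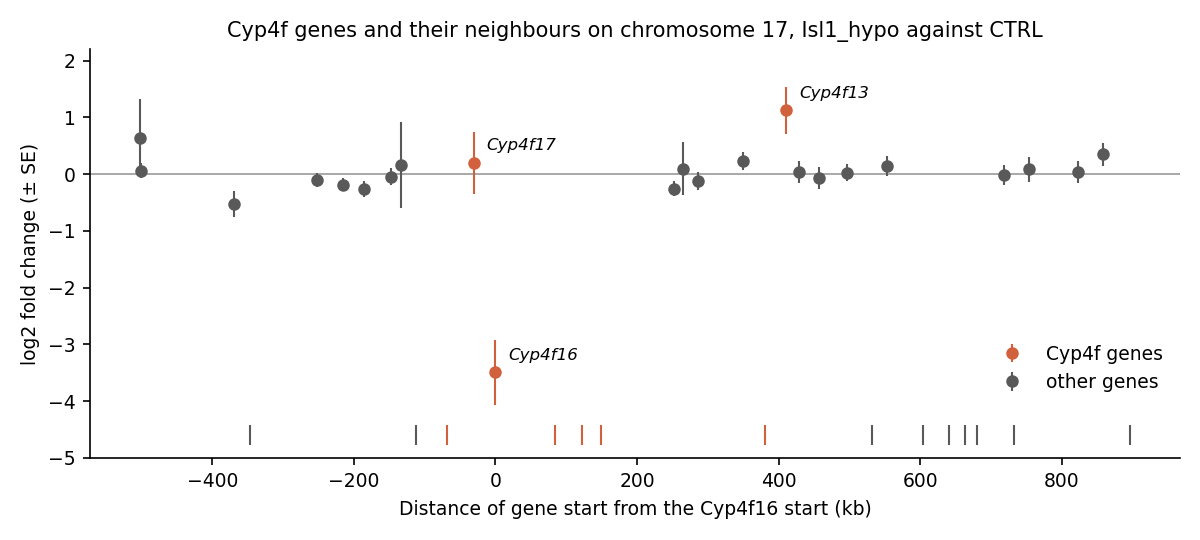
Log2 fold change of Isl1_hypo against CTRL with its SE for tested genes within 500 kb of the cluster, against the distance of each gene's start from that of Cyp4f16. Ticks at the bottom mark genes that were not tested. Cyp4f16 lies at -3.49, and the 20 genes outside the family lie between -0.52 and 0.64.

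By Pearson correlation of log2 CPM over the 8 libraries, the genes most like Cyp4f16 were Zmym3 (r = 0.978), Pcif1 (0.948), Asxl1 (0.947), Pcnx4 (0.946) and Prdm6 (0.945). These points share the split into 2 groups, so the values describe it as much as the spread within a group. Zmym3, a zinc finger protein of chromatin complexes, was at 50.2, 66.2, 58.6 and 68.3 CPM in CTRL and at 46.1 to 50.9 CPM in Isl1_hypo. Prdm6, a PR domain protein of smooth muscle, was at 13.4, 21.8, 21.9 and 22.4 CPM in CTRL and at 10.02 to 13.7 CPM in Isl1_hypo. CTRL replicate 1 was the lowest control for each of the 5 genes, as it was for Cyp4f16, and choosing genes by their likeness to Cyp4f16 favours that pattern. Their log2 fold changes lay between -0.80 (Prdm6) and -0.26 (Pcif1), and none was called (edgeR adjusted p from 0.15 to 0.40).

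The other Cyp4 genes of the mouse were low as well. The counts for this list and the 4 pathway lists after it stand against 0.269% of all genes called by edgeR, 2.32% called by DESeq2 and 11.9% with an unadjusted edgeR p under 0.05, so that lists of this size hold few or no such genes at those shares. Of 11 listed, 2 were tested, and 0 met any of these criteria. Cyp4v3, a fatty acid hydroxylase of the eye and other tissues, was at 1.52 ± 0.658 CPM in CTRL and 0.771 ± 0.210 CPM in Isl1_hypo, with a log2 fold change of -0.98 (SE 0.51; edgeR adjusted p = 0.49). Cyp4b1 was at 0.368 ± 0.219 and 0.527 ± 0.310 CPM. A further 6 genes, all of the Cyp4a group, had 0 counts in all 8 libraries.

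Genes that pass electrons to microsomal P450 enzymes, or that bind or break down heme, were expressed in both groups. All 8 genes of this list were tested, 3 higher and 5 lower, with a median log2 fold change of -0.07, and 0 met any of the 3 criteria. Por, the reductase that passes electrons to microsomal P450 enzymes, was at 84.97 ± 6.62 CPM in CTRL and 69.3 ± 14.9 CPM in Isl1_hypo (edgeR adjusted p = 0.48). Cyb5r3, a cytochrome b5 reductase, was at 280 ± 42.3 and 263 ± 11.3 CPM. Cyb5b and Cyb5a, cytochromes b5 that donate electrons, were at 206.1 ± 8.404 and 166 ± 23.9 CPM in CTRL and at 233 ± 34.4 and 204 ± 48.0 CPM in Isl1_hypo. Pgrmc1, a heme-binding membrane protein, was at 198 ± 8.05 and 217 ± 16.8 CPM.

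Genes that act on the products or substrates of CYP4F enzymes were then examined in 3 lists. Of 18 genes for the handling of omega-oxidised and other long fatty acids 16 were tested, 8 higher and 8 lower with a median log2 fold change of -0.02, and 0 were called by edgeR. Acsl1, which activates long chain fatty acids, was called by DESeq2 and had an unadjusted edgeR p under 0.05. Its levels were 58.4 ± 2.03 and 44.9 ± 2.03 CPM (log2 fold change -0.38, SE 0.10; edgeR adjusted p = 0.20). Adh5, an alcohol dehydrogenase that also oxidises omega-hydroxy fatty acids, was the most abundant at 254 ± 16.9 and 284 ± 12.7 CPM.

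Of 25 genes of the leukotriene and eicosanoid pathway 18 were tested, 13 higher and 5 lower with a median log2 fold change of 0.18 (0.06 without Isl1_hypo replicate 3), and 0 were called by edgeR or DESeq2. Lta4h, which makes leukotriene B4, was at 286 ± 29.1 and 288 ± 37.01 CPM. Alox5, the lipoxygenase that starts leukotriene synthesis, was at 5.43 ± 0.961 and 6.24 ± 1.65 CPM. The 1 gene with an unadjusted p under 0.05 was Hpgd, which inactivates prostaglandins, at 7.81 ± 4.57 and 15.4 ± 4.62 CPM (edgeR adjusted p = 0.32).

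Of 10 genes of acylceramide synthesis, the pathway of Cyp4f39, 6 were tested, and 0 were called by edgeR or DESeq2. Of these, 5 were higher and 1 lower, with a median log2 fold change of 0.12. Without Isl1_hypo replicate 3 the median was 0.05, with 3 higher and 3 lower. Cers3, the ceramide synthase of skin, had the only unadjusted p under 0.05, at 0.507 ± 0.276 and 2.28 ± 2.53 CPM (log2 fold change 2.15; edgeR adjusted p = 0.31). Isl1_hypo replicate 1 decided this value, and without it the mutant mean was 1.03 ± 0.493 CPM (log2 fold change 1.02; edgeR adjusted p = 0.54). Elovl1, a fatty acid elongase, was at 108 ± 5.81 and 112 ± 15.3 CPM.

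Markers of other cells that the dissection could hold were set beside Cyp4f16. In any marker list 0 genes were called by edgeR, against 0.269% of all genes, a share at which lists of this size hold few or none. Summed over each list, macrophage markers were at 24.2 to 44.0 CPM in CTRL and 25.1 to 44.5 CPM in Isl1_hypo. The median log2 fold change of the 12 tested was -0.64, with 9 lower and 3 higher. It was -0.42 without CTRL replicate 4, with 7 lower and 5 higher, and -0.42 and -0.43 without Isl1_hypo replicates 3 and 2, with 9 lower in each case. Lyz2, a lysozyme of myeloid cells, was at 6.55 ± 2.77 and 19.4 ± 5.30 CPM (edgeR adjusted p = 0.082). Without it the sums were 15.8 to 37.1 CPM in CTRL and 5.66 to 27.4 CPM in Isl1_hypo. Neutrophil markers, with S100a8, S100a9 and Ly6g at 0 counts, were at 1.09 to 5.07 and 1.61 to 6.08 CPM. Liver and yolk sac markers were at 6.37 to 10.6 and 8.69 to 12.4 CPM, with Fgb and Serpina1a at 0 counts, and both genes tested were higher. Mesenchyme markers were at 1571 to 2355 and 872 to 2898 CPM, with 6 of the 7 tested lower. Neural markers were at 53.5 to 78.6 and 33.7 to 55.3 CPM, with 2 of the 3 tested lower. Epithelial markers were at 98.5 to 176 CPM in CTRL and 183 to 420 CPM in Isl1_hypo, and all 8 tested were higher. Most of each sum was from the keratins Krt8, Krt18 and Krt19. Their means were 36.4, 64.0 and 49.3 CPM in CTRL and 69.0, 111 and 83.8 CPM in Isl1_hypo. Cdh1, Cldn6 and Esrp1, which were not tested, reached 15.3, 38.5 and 6.03 CPM in Isl1_hypo replicate 1. In every other embryo these genes were at 0.311 CPM or less. The highest sum was that of Isl1_hypo replicate 1. Without that embryo the mutant sums were 183 to 328 CPM, and 6 of the 8 were higher and 2 (Cldn4 and Cldn7, tight junction proteins) lower. Without it, too, all 7 mesenchyme markers were lower, with sums of 872 to 1345 CPM in Isl1_hypo. The 9 globin symbols include 3 pairs with the same or nearly the same counts (Hba-a1/Hba-a2 for alpha globin, and Hbb-b1/Hbb-bs with Hbb-b2/Hbb-bt for beta globin), and 1 of each pair was kept. The 6 genes left were at 0.205% to 1.15% of counts in CTRL and 1.14% to 2.32% in Isl1_hypo, and all 6 were higher. Without CTRL replicate 4, which had the highest globin share of the controls, edgeR called 5 of the 6, among 40 genes called in that fit. With any other single embryo left out it called 0 of the 6. Within CTRL, replicate 1 had the lowest epithelial and globin sums (98.5 and 1952 CPM) and the highest neural and mesenchyme sums (78.6 and 2355 CPM). It also had the lowest cardiomyocyte sum, 40036 CPM, against 46454 to 49112 CPM in the other controls. The part of these cells in the level of Cyp4f16 was not tested. An unadjusted edgeR p under 0.05, found for 11.9% of all genes, was found for 5 of 8 epithelial, 5 of 6 globin and 4 of 10 cardiomyocyte markers. It was found for 1 of 12 macrophage, 1 of 3 neural and 1 of 7 mesenchyme markers and for 0 of the neutrophil or liver and yolk sac markers. DESeq2, which called 2.32% of all genes, called 2 epithelial, 1 globin, 2 cardiomyocyte and 1 macrophage marker. The 4 cardiomyocyte markers were Myh6, Myh7 and Ttn, sarcomere genes with log2 fold changes of -0.31, -0.49 and -0.90, and Tnni3, a troponin, with 0.45, and the 2 that DESeq2 called were Myh7 and Ttn.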

How the data were processed

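Polyadenylated RNA of 8 single embryos (4 CTRL, 4 Isl1_hypo) was sequenced on BGISEQ-500. The authors aligned reads to mm9 with STAR and deposited raw counts of exon reads per RefSeq transcript. How reads mapping to several genes were assigned is not given in the sources used here. The deposited RPKM values, and the columns of the authors' own DESeq2 comparison (mean, log2 fold change with its error, statistic and p-values), were not used.

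For each of 20701 symbols the transcript with the highest mean count was kept. Low genes were removed with filterByExpr, libraries were scaled by TMM, and edgeR 4.0.16 (R 4.3.3) fitted its quasi-likelihood model to the 2 groups with no covariate, with Benjamini-Hochberg adjustment over 13769 genes at 0.05. CPM used TMM-scaled library sizes and log2 CPM a prior count of 2. The biological coefficient of variation was 26.4%. DESeq2 1.42.0, other size factors, filters, transcript choices, a replicate block and leaving out each embryo were alternatives. Gene positions came from the mm9 GENCODE annotation (Cyp4f37 is named Gm9705 there and was matched by its RefSeq synonym). Coding sequences were aligned with Biopython 1.88. Genes named were the 9 members, Isl1, the 2 nearest tested genes on each side, the 5 genes most correlated with Cyp4f16, and, in each list, genes among the 4 most abundant and any passing the test. Por, Alox5, Cldn4, Cldn7, single list genes with an unadjusted p under 0.05 and the zinc finger genes inside the cluster were named after their values were seen. The members and lists were chosen with earlier results of these data known.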

Additional observations from a re-analysis of the deposited data

How the results depend on the processing

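The log2 fold changes of Cyp4f16 and Cyp4f13 kept their direction under every alternative run, while that of Cyp4f17 changed sign without CTRL replicate 4 (-0.11). Isl1 passed the threshold in every alternative except the replicate block. The number of genes called, 37, was 319 with DESeq2, and it was between 4 and 48 when single embryos were left out, with 8, 5 and 4 without CTRL replicates 1, 2 and 3 and 12 and 11 without Isl1_hypo replicates 2 and 4. Leaving out an embryo gave log2 fold changes of -2.46 to -2.14 for Isl1 and -3.85 to -3.22 for Cyp4f16, and the control SD of Cyp4f16 was 0.51 to 1.78. With a replicate block, the count was 0, the log2 fold change of Isl1 was -2.29 (edgeR adjusted p = 0.072) and that of Cyp4f16 was -3.21. Same-numbered embryos did not deviate together (correlations -0.02 to 0.02), and 1 of the 4 numbers correlated best with its own. These values show no sign that the numbers pair the samples, but they cannot exclude it, and the labels state no pairing. The cause of these changes was not tested. Depth limits the 6 genes left untested, whose libraries held at most 22 counts. Sequence shared with Cyp4f37 limits Cyp4f16 to the extent that such reads were split or dropped, which is not known. Cyp4f37 had 0 counts in CTRL replicates 2, 3 and 4.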
